A study of Homo sapiens with 12 samples.

Results

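The regions described here are the places on human chromosomes 16, 17, 19, 20 and 22 where a FOXA1 peak was called in LNCaP cells, an established androgen-responsive prostate cancer cell line. Peaks of 8 FOXA1 ChIP-seq libraries that overlapped by 1 base or more were joined into 140968 regions, and 14895 of them (10.6%) lay on these 5 chromosomes. The members were defined by chromosome alone and no measured value entered the rule, though earlier results of these data were known when it was set. The other 17 autosomes held 121579 regions and are the comparison throughout; the remaining regions were not used in it.

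The 8 FOXA1 libraries came from cells kept for 7 days in 1 µM EPZ-6438, in 3 µM P5091, in both compounds at these doses, or in DMSO, with 2 libraries each. EPZ-6438 inhibits EZH2, the lysine methyltransferase of Polycomb repressive complexes, and P5091 inhibits USP7, an enzyme that removes ubiquitin from proteins. A further 4 libraries were made with an antibody against the HA tag, 5 days after infection and with 1 library per condition: an shRNA against FOXA1 (shFoxA1) with HA-tagged K295A, a form of FOXA1 in which a lysine is replaced by alanine, shFoxA1 with HA-tagged wild-type FOXA1 (WT), shFoxA1 without a tagged protein, and the pGIPZ control vector. The last 2 carry no HA-tagged FOXA1 and show the background of the HA antibody. All 12 libraries come from this 1 cell line, so the results describe LNCaP chromatin and its own chromosome content.

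FOXA1 is a forkhead transcription factor of luminal prostate cells. It is called a pioneer factor because it can bind its sites in closed chromatin and opens enhancers at which the androgen receptor then binds. Many of its sites lie in enhancers far from promoters, so the number of sites on a chromosome need not follow its number of genes. Gene-rich chromosomes carry more early-replicating, GC-rich, open chromatin, and open chromatin also tends to give more fragments in an input library, that is, sonicated chromatin sequenced without an antibody.

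The label "gene-rich" held for the 5 chromosomes as a group. Together they carry 4462 protein-coding genes in the RefSeq annotation of GRCh38.p14, against 14664 on the other autosomes. Per Mb of the span that the peak lists cover in hg19, the 5 chromosomes had 13.6 genes and the other autosomes 5.94, a ratio of 2.29. Chromosome 19 was the most gene-dense autosome with 24.6 genes per Mb, chromosome 17 the next with 14.4, and chromosome 22 followed with 12.8. Chromosomes 16 and 20 had 9.47 and 8.55 genes per Mb, below chromosome 11, which is not among the 5 and had 9.65. Chromosome 1 came next after chromosome 20 with 8.27, so the line between the 5 and the other autosomes is not sharp.

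The FOXA1 libraries held 12299238 to 22589685 tags each and the HA libraries 11640056 to 13694090, and 7 of the 8 FOXA1 libraries had 68504 to 84423 peaks. Combination replicate 1 stood apart with 30811 peaks, and its median tag count at regions called in all 8 libraries was 16.3 on the 5 chromosomes, against 37.1 to 45.3 there in the other libraries. Replicates numbered 1 also differed from replicates numbered 2 in fragment length, estimated at 274 to 278 bases in the first and 216 to 230 bases in the second. The K295A and WT libraries had 81607 and 97120 peaks, and the untagged shFoxA1 and pGIPZ libraries had 971 and 982. Results that rest on combination replicate 1 are given with and without it.

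The 5 gene-rich chromosomes held fewer FOXA1 regions per gene than the rest of the autosomes, and slightly fewer per Mb. They hold 23.3% of autosomal protein-coding genes and 11.7% of the autosomal span, and 10.9% of autosomal FOXA1 regions lay there. That came to 45.4 regions per Mb on the 5 chromosomes and 49.3 on the other autosomes, a ratio of 0.921. The ratio was 0.951 when stretches of over 1 Mb without a peak in any library, such as centromeres, were taken out of the lengths.

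Per protein-coding gene there were 3.34 regions on the 5 chromosomes, against 8.29 on the other autosomes. Chromosome 19 had 1.55 regions per gene, the fewest of the 22 autosomes, followed upwards by chromosome 22 with 3.53, chromosome 17 with 3.73 and chromosome 16 with 4.26. Chromosome 20, with 5.69, had more regions per gene than chromosome 11, which had 5.23, the lowest of the other autosomes. The other autosomes reached 13.7 regions per gene on chromosome 18.

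Across the 22 autosomes, regions per gene fell with gene density (Pearson r = -0.86, Spearman rho = -0.97, r = -0.92 without chromosome 19). This is a description with no test, since gene number enters both axes and all chromosomes come from the same libraries. Regions per Mb showed no such order, with r = -0.21 and rho = 0.21, and the sign of r turned to 0.25 once chromosome 19 was left out.

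**Figure D1:**
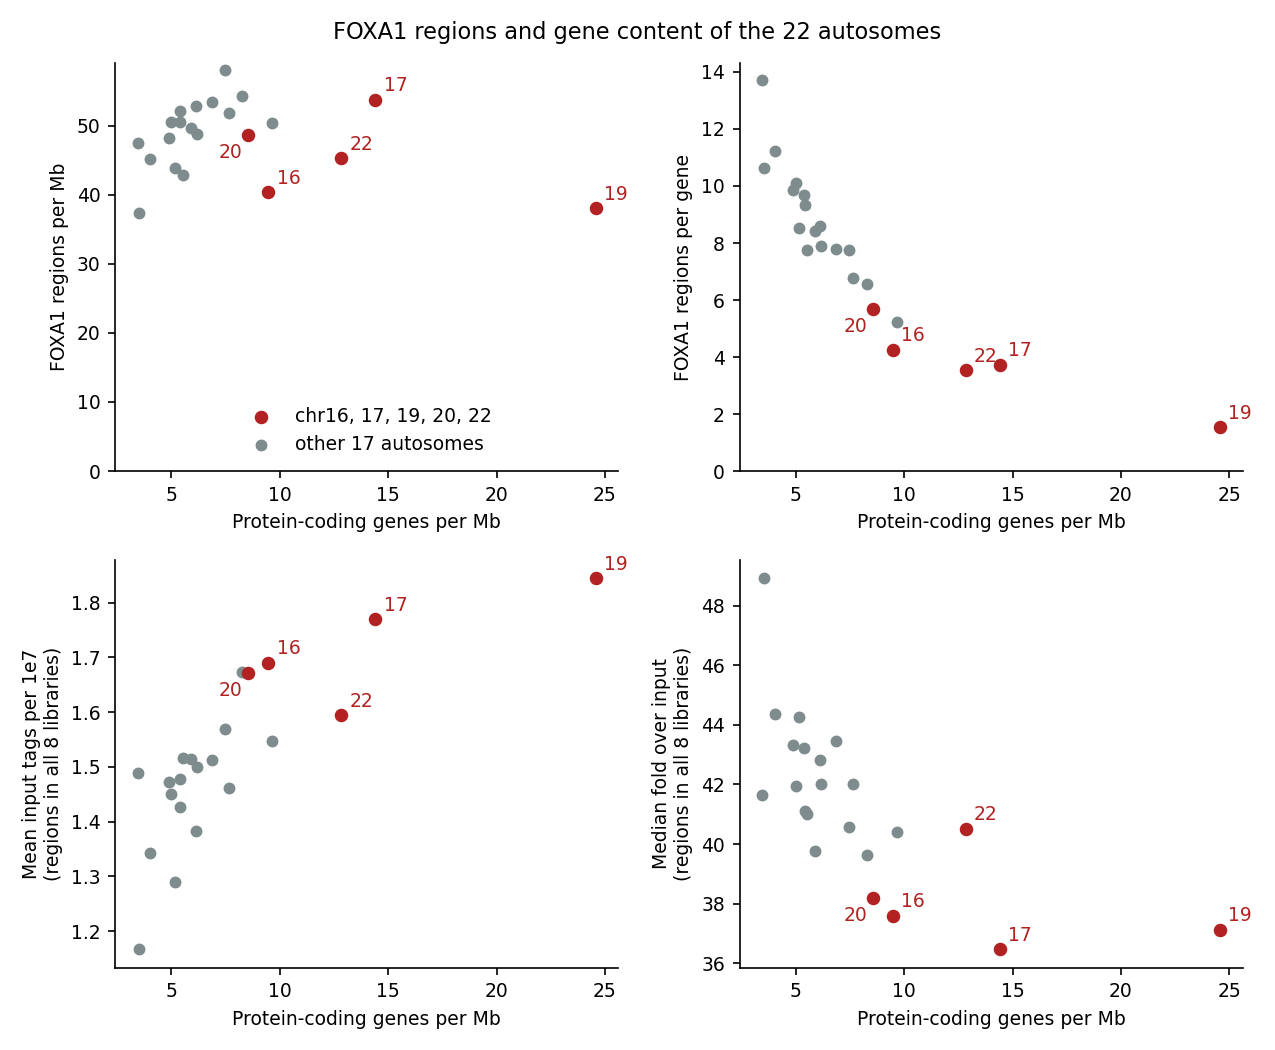
FOXA1 regions per Mb, regions per gene, mean input tags (per 1e7 input tags) and median fold over input, each against protein-coding genes per Mb, with 1 point for each of the 22 autosomes and the 5 gene-rich chromosomes in red. Chromosome 19 lies lowest in regions per gene (1.55) and highest in input tags (1.84), and chromosome 17 lies lowest in fold over input (36.5).

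The 5 chromosomes were not alike in density. Chromosome 17 held 4360 regions at 53.7 per Mb, rank 3 of the 22 autosomes. Chromosome 20 held 3057 at 48.7 per Mb and chromosome 22 held 1591 at 45.3 per Mb, both below the median of the other autosomes, 50.4. Chromosome 16 held 3638 at 40.3 per Mb and chromosome 19 held 2249 at 38.1 per Mb, ranks 20 and 21 of 22. The other autosomes ran between 37.4 regions per Mb on chromosome 13 and 58.0 on chromosome 15. On chromosome 16, 10 of the 91 windows of 1 Mb held no region, and without stretches of over 1 Mb free of peaks its density was 46.0 per Mb.

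Each library gave its own ratio of peaks per Mb on the 5 chromosomes over the other autosomes. The ratios were 0.947 and 0.855 under EPZ-6438, 0.991 and 0.906 under P5091, 0.944 and 0.902 under the combination, and 0.947 and 0.918 in DMSO, replicate 1 first in each pair. Density was thus lower on the 5 chromosomes in 8 of 8 libraries, though in P5091 replicate 1 by very little, and the test of this difference depended on the peaks and chromosomes used.

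On the log2 scale the difference averaged -0.11 ± 0.06 (SD, n = 8), and an exact two-sided sign-flip permutation test over the libraries gave p = 0.00781, the smallest that 8 libraries allow, and 0.0117 after Benjamini-Hochberg adjustment over the 3 measures tested this way (density, tag count and fold over input). The libraries share chromosomes, cells and inputs, so this p says only that the libraries are alike. With the 4 inputs as units the exact p was 0.125, the smallest possible, and without chromosome 16 the difference was -0.05 (exact sign-flip p = 0.0547). With peaks scored at or above the median it was -0.047 (exact p = 0.0859) and with equal numbers of top peaks -0.054 (exact p = 0.117). Without chromosome 17 it was -0.20 and without chromosome 19 it was -0.05.

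Within the 5 chromosomes FOXA1 regions were unevenly spread. The fixed 1 Mb window with most regions on chromosome 16 was chr16:14000001-15000000 (hg19), with 84 regions, 20 of them called in all 8 libraries. On chromosome 17 it was chr17:46000001-47000000, also with 84 regions and 14 in all 8. Chromosome 20 had 79 regions in chr20:52000001-53000000, chromosome 22 had 69 in chr22:29000001-30000000, and chromosome 19 had 62 in chr19:2000001-3000000. None of the regions in these windows overlapped a peak of an untagged HA library. The richest window of each of the other autosomes held 80 to 132 regions, so 3 of the 5 chromosomes (19, 20 and 22) had a lower maximum than any of those. Their maxima were taken over 60, 63 and 36 windows, against 79 to 250 on the other autosomes apart from chromosome 21 with 40. A maximum over fewer windows tends to be lower. The variance of regions per window over its mean was 3.61 to 12.2 on the 5 chromosomes and 5.18 to 14.1 on the other autosomes, where random (Poisson) scatter would give 1. Chromosome 16, with the highest value of the 5, had 10 of 91 windows empty, and chromosome 22, with the lowest, had 0 of 36. Chromosome 21, with the highest value of the autosomes (14.1), had 2 of 40 empty. The part of empty windows in this ratio was not tested.

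Occupancy, the number of libraries in which a region was called, was slightly higher on the 5 chromosomes by the share of regions called in all 8, and the size of the difference depended on which peaks were used. On the 5 chromosomes 2691 regions (18.1%, 95% Clopper-Pearson interval 17.5% to 18.7%) were called in all 8 libraries, against 21013 (17.3%, 17.1% to 17.5%) on the other autosomes. Regions called in 1 library made up 26.5% on the 5 chromosomes and 26.4% on the other autosomes. The difference in regions called in all 8 was 0.783 percentage points, and it was 0.499 points when combination replicate 1 was left out. With an equal number of top peaks from each library it was 2.62 points, and with peaks scored at or above the median it was 2.10. These intervals, like all others here, cover counting error only.

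By chromosome, 18.5% of regions on chromosome 16, 18.0% on chromosome 17, 17.4% on chromosome 19, 18.5% on chromosome 20 and 17.3% on chromosome 22 were called in all 8 libraries. The other autosomes ran between 16.2% on chromosome 13 and 18.0% on chromosome 7. Chromosomes 16 and 20 had ranks 1 and 2 by a margin inside their own counting intervals, which for chromosome 16 were 17.3% to 19.8%.

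**Figure D2:**
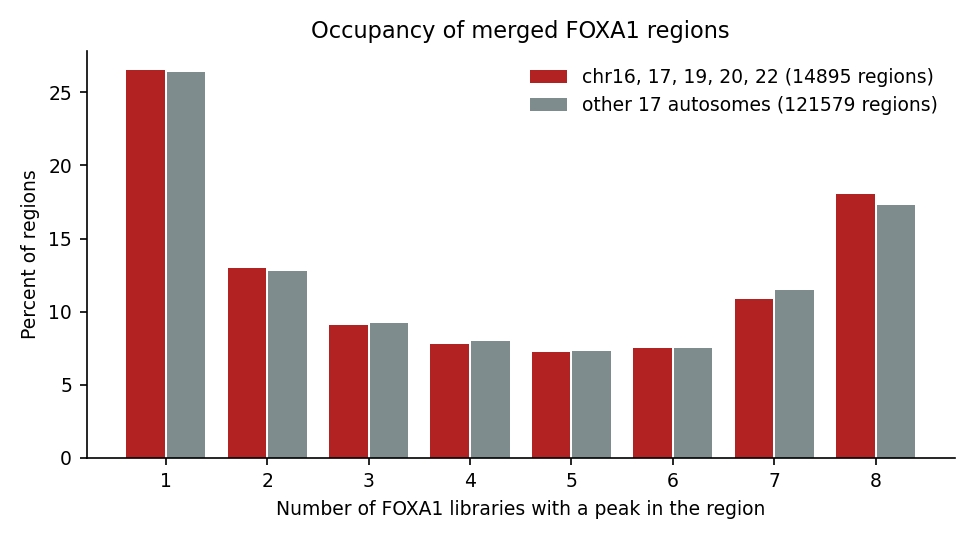
Percent of merged FOXA1 regions by the number of FOXA1 libraries, 1 to 8, with a peak in the region; red bars are the 14895 regions of the 5 gene-rich chromosomes and grey bars the 121579 regions of the other autosomes. Both sets peak at 1 library (26.5% and 26.4%) and rise again at 8 libraries (18.1% and 17.3%).

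Tag counts at regions called in all 8 libraries were slightly higher on the 5 chromosomes. The measure is the deposited normalized tag count, tags in the peak per 1e7 tags of the library, averaged over the 8 libraries for each region. Its median was 37.2 on the 5 chromosomes and 34.6 on the other autosomes. Members ranged between 11.1 and 396.9, with quartiles of 26.0 and 55.4. Chromosome 19 had the highest median of the 22 autosomes with 38.2, followed by chromosomes 16, 17 and 20, while chromosome 22 had 35.3 and had rank 9.

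Within each library, the median log2 (tag count + 1) at these regions was higher on the 5 chromosomes by 0.20 and 0.03 under EPZ-6438, 0.16 and 0.02 under P5091, 0.11 and 0.03 under the combination, and 0.17 and 0.09 in DMSO. It was higher in 8 of 8 libraries, by 0.10 ± 0.07 on average (SD, n = 8; exact two-sided sign-flip permutation p = 0.00781). Over all peaks of each library, the test planned as the main one, the difference was 0.04 ± 0.04, higher in 5 libraries and at 0 in 3 (exact sign-flip p = 0.0625). In those 3 libraries the medians of both sets were equal, and with 3 values at 0 the exact sign-flip test could not go below 0.0625. With means in place of medians over the same peaks it was 0.06 ± 0.03 (exact sign-flip p = 0.00781). Both the regions and the summary used therefore decided whether this difference passed 0.05.

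The input moved with the same chromosomes. At regions called in all 8 libraries the input held 1.72 tags per 1e7 on average on the 5 chromosomes and 1.46 on the other autosomes, a ratio of 1.18. Chromosome 19 had the highest input of the 22 autosomes with 1.84 tags, chromosome 17 the next with 1.77 and chromosome 16 the next with 1.69. Chromosome 20 had 1.67 and chromosome 22 had 1.59, while chromosome 1, the highest of the other autosomes, also had 1.67. Across the 22 autosomes input rose with genes per Mb (r = 0.78, rho = 0.82), and the median FOXA1 tag count rose with input (r = 0.94, rho = 0.88). These correlations are descriptions over chromosomes that share all libraries and inputs, and the part of the input in the tag counts was not tested.

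Fold over input, the peak caller's ratio of FOXA1 tags to input tags, was lower on the 5 chromosomes. Averaged over libraries for each region, its median was 37.6 on the 5 chromosomes and 42.1 on the other autosomes. Chromosome 17 had the lowest median of the autosomes with 36.5, then came chromosomes 19 with 37.1, 16 with 37.6 and 20 with 38.2. Chromosome 22 had 40.5, inside the range of the other autosomes, which ran between 39.6 on chromosome 1 and 48.9 on chromosome 13. Tag count and fold over input thus ranked these chromosomes in nearly opposite order.

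Over all peaks of a library, median log2 fold over input was lower on the 5 chromosomes in 8 of 8 libraries, by -0.20 ± 0.11 on average (SD, n = 8; exact two-sided sign-flip permutation p = 0.00781, adjusted p = 0.0117). The 2 replicates of a treatment share 1 input, so there are only 4 independent inputs, and with these as units p was 0.125, the smallest possible. At regions called in all 8 libraries the difference was -0.21 ± 0.13, lower in 7 libraries and 0.00 in P5091 replicate 1.

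The 4 inputs were not alike on these chromosomes. The ratio of mean input tags on the 5 chromosomes over the other autosomes was 1.26 and 1.24 in the 2 EPZ-6438 libraries, 1.10 and 1.09 with P5091, 1.10 and 1.11 with the combination, and 1.26 and 1.23 with DMSO. The log2 difference in fold over input was -0.32 for EPZ-6438, -0.05 for P5091, -0.13 for the combination and -0.32 for DMSO, each at regions present in all 8 libraries. The inputs of cells that received P5091 and those of cells that did not can be compared only as 2 against 2, where the exact two-sided permutation p was 0.333, the smallest possible. Per chromosome, the log2 ratio of relative input with P5091 (alone or combined) over relative input without it was -0.27 on chromosome 19, -0.18 on chromosome 17, -0.11 on chromosome 22 and -0.05 on chromosomes 16 and 20. On 15 of the other 17 autosomes it was above 0. With 1 input per treatment, an effect of P5091 on the input and a difference between 2 input preparations cannot be told apart.

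**Figure D3:**
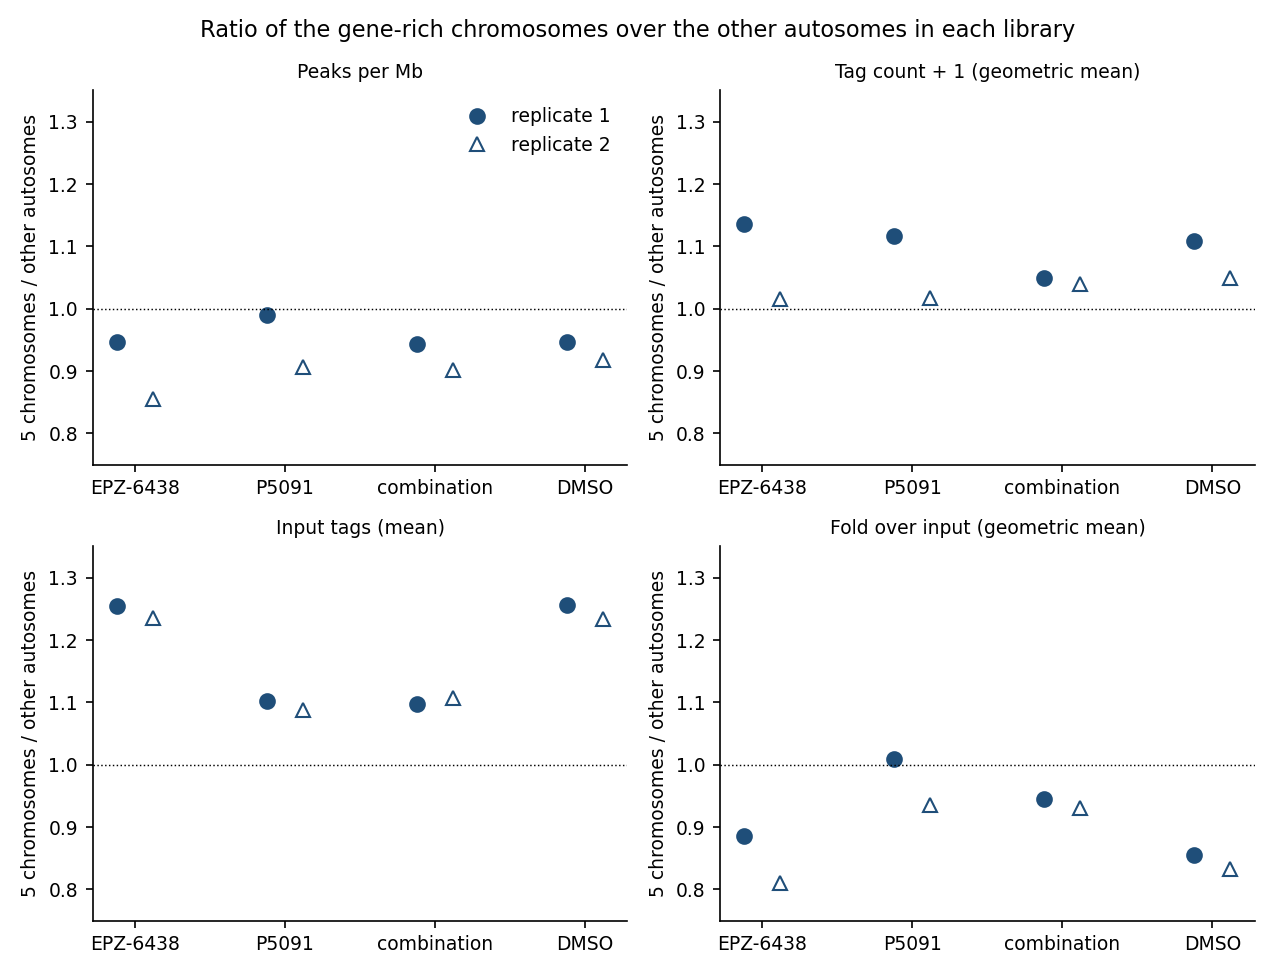
Ratio of the 5 gene-rich chromosomes over the other autosomes in each FOXA1 library for peaks per Mb and, at regions called in all 8 libraries, for tag count, input tags and fold over input; filled circles are replicate 1, open triangles replicate 2, and the dotted line marks equality. Peaks per Mb lie below 1 in all 8 libraries, and the input ratio lies near 1.25 for EPZ-6438 and DMSO and near 1.10 for P5091 and the combination.

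Replicate number moved with the results on these chromosomes. The share of autosomal peaks on the 5 chromosomes differed between replicate 2 and replicate 1 by -0.979 percentage points with EPZ-6438, -0.884 with P5091, -0.440 with the combination and -0.307 with DMSO. All 5 chromosomes had a lower share in replicate 2 in 4 of 4 treatments, whereas among the other 17 autosomes only chromosomes 10 and 15 did so. The mean log2 ratio of replicate 2 over replicate 1 was -0.11 on chromosome 22, -0.10 on chromosome 19 and -0.07 to -0.08 on the other 3 gene-rich chromosomes. With 4 pairs the exact two-sided sign-flip permutation p was 0.125, the smallest possible.

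The relative tag count was lower in replicates 2 as well. At regions called in all 8 libraries, the excess of the 5 chromosomes was 0.04 (0.02 to 0.09) on the log2 scale in replicates 2 and 0.16 (0.11 to 0.20) in replicates 1, with no overlap. Across the 22 autosomes the shift in peak share between replicates fell with genes per Mb (r = -0.77, rho = -0.69). Fragment length differs between the same libraries, and its part in the shift was not tested.

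**Figure D4:**
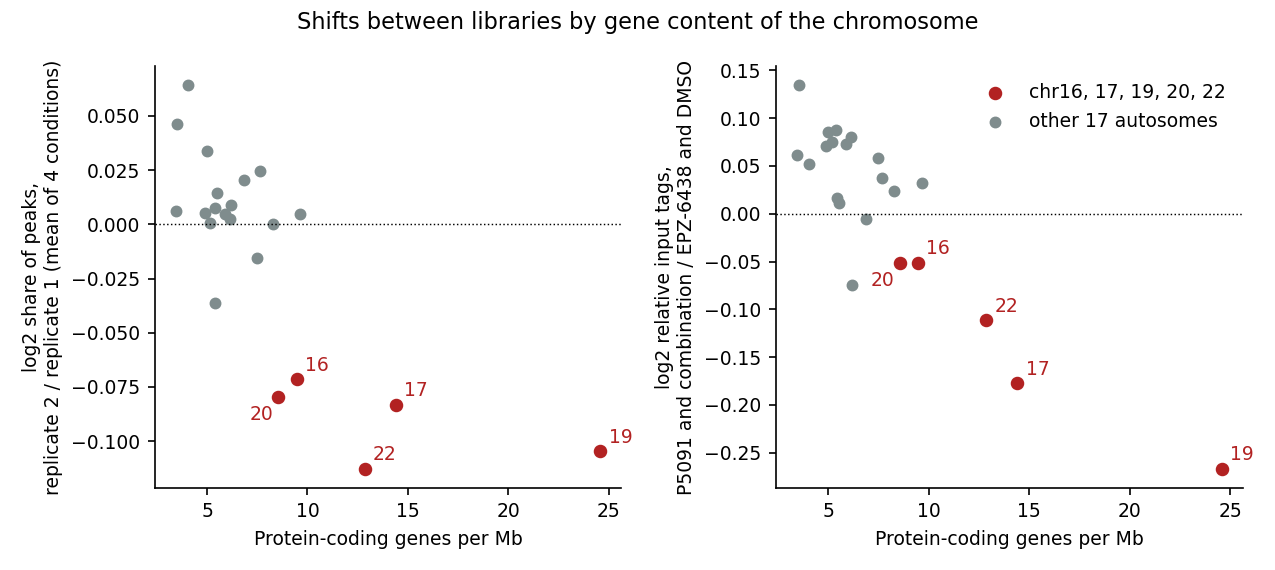
Left, log2 ratio of each autosome's share of peaks in replicate 2 over replicate 1, as a mean over the 4 treatments; right, log2 ratio of relative input tags in the P5091 and combination libraries over the EPZ-6438 and DMSO libraries; both against protein-coding genes per Mb. The 5 gene-rich chromosomes (red) lie below 0 in both panels, down to -0.11 for chromosome 22 on the left and -0.27 for chromosome 19 on the right.

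The comparison with DMSO asks whether either compound, or both together, moved FOXA1 towards or away from the gene-rich chromosomes. In unpaired tests neither the share of peaks nor the relative tag count of any treatment differed from DMSO beyond the spread between libraries. Within replicate numbers the relative tag count, by medians, was lower in both pairs with P5091 and with the combination. The 3 treatments are set against the same 2 DMSO libraries. The 5 chromosomes held 11.2% and 10.2% of autosomal peaks with EPZ-6438, 11.6% and 10.8% with P5091, 11.2% and 10.7% with the combination, and 11.2% and 10.9% with DMSO. All 3 treated groups overlapped DMSO. The mean differences in share from DMSO were -0.336 percentage points for EPZ-6438 (exact two-sided permutation p = 0.667), 0.162 for P5091 (p = 1.00) and -0.100 for the combination (p = 0.667), and 2 libraries against 2 cannot reach below 0.333.

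At the 2691 members present in every FOXA1 library, the tag count relative to the other autosomes moved against DMSO by -0.01 (EPZ-6438), -0.04 (P5091) and -0.06 (combination) on the log2 scale (exact two-sided permutation p = 1.00, 0.667 and 0.667). Within replicate 1 and within replicate 2 these differences were 0.03 and -0.06 for EPZ-6438 and -0.01 and -0.06 for P5091. For the combination they were -0.0557 and -0.0564 (SD 0.0005), and its mean difference stayed below 0 in every alternative tried, at -0.097 to -0.015. The closeness of this pair depended on the measure. With means in place of medians the differences were -0.079 and -0.011 for the combination and 0.011 and -0.044 for P5091. With 2 pairs an exact sign-flip test cannot go below 0.5, so the paired difference cannot be tested to 0.05.

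The 4 libraries that received EPZ-6438 differed in share by -0.299 percentage points from the other 4 (exact permutation p = 0.314), and the 4 that received P5091 by 0.199 points (exact permutation p = 0.600).

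Peak calls also differed between treated and DMSO libraries. A region with no call may still hold tags under the calling threshold, so the counts are of calls and not of binding. With EPZ-6438, 590 of the 6336 member regions called in both treated libraries (9.31%) had no peak in either DMSO library, against 9.78% on the other autosomes and 9.69% over all regions of the series. In the other direction, 517 of the 6163 members called in both DMSO libraries (8.39%, 95% interval 7.71% to 9.11%) had no peak with EPZ-6438 and are counted as lost calls, against 7.24% (7.02% to 7.48%) on the other autosomes and 7.43% over all regions. With P5091, 406 of 6098 members were called anew (6.66%, 6.04% to 7.31%), against 4.96% (4.77% to 5.16%) on the other autosomes and 5.14% over all regions, and 348 were lost (5.65%, against 5.49% on the other autosomes and 5.51% over all). The intervals for loss with EPZ-6438 and gain with P5091 did not overlap those of the other autosomes, but they count regions within the same few libraries and say nothing of the spread between cultures. The FOXA1 lists were filtered against the input, which was relatively lower on these chromosomes with P5091 (ratio 1.10) than with DMSO (1.25), and its part in the gain was not tested.

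With the combination 89 of 3178 members were called anew (2.80%, against 2.90% on the other autosomes and 2.89% over all regions), and 892 of 6163 were lost (14.5%, 13.6% to 15.4%, against 13.7% on the other autosomes and 14% over all). With calls in combination replicate 2 alone as the criterion, which leaves out replicate 1 and asks for 1 call in place of 2, these became 1850 of 8656 members called anew (21.4%, against 22.4% on the other autosomes and 22.3% over all regions) and 953 lost (15.5%, against 14.6% on the other autosomes and 14.9% over all).

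Single regions were tested with limma on the log2 tag count with 1 added, at the 24242 regions that every FOXA1 library shared, with Benjamini-Hochberg adjustment at 0.05 over all of them. Of the 14895 members 2691 entered this test, and the other members lacked a peak in at least 1 library, so a region called only with or only without a compound is not among them. With the 4 groups alone in the model, 0 of 2691 members passed in each comparison, and percent called over all regions was 0%. At an unadjusted p under 0.05 there were 14 members for EPZ-6438, 0 for P5091, 424 for the combination and 249 for the pooled contrast of the 4 libraries that received EPZ-6438 and the 4 that did not. As shares these were 0.520%, 0%, 15.8% and 9.25% of the members, against 0.961%, 0.0495%, 14.1% and 8.89% of all 24242 regions. No other tool was run. The median difference over the members was -0.72 on the log2 scale for the combination, against -0.69 over all regions tested, a shift that the members shared with the rest. Without combination replicate 2, which leaves the low library alone in its group and assumes that it varies like the others, 1891 of 2712 members (69.7%) passed for the combination and 1333 (49.2%) for the pooled contrast, all lower, against 66% and 47.1% of the 24483 regions tested.

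Same-numbered libraries deviated together, and a fit that used the replicate number as a block, after each library's median had been subtracted, called some members. This fit is named the blocked fit from here on, and it differs from the first in both choices: with the block but no centring 0 members passed in each comparison, and with centring but no block 0 passed against DMSO and 2 in the pooled contrast. For EPZ-6438 against DMSO it called 13 of 2691 members (0.483%), 4 higher and 9 lower, while percent called over all 24242 regions was 0.689%, with 0.322% higher and 0.367% lower. For the combination it called 107 members (3.98%), 36 higher and 71 lower, against 4.23% over all regions, with 1.8% higher and 2.43% lower. For the pooled contrast it called 193 (7.17%), 73 higher and 120 lower, against 7.54% over all regions, with 3.49% higher and 4.05% lower. For P5091 it called 0 members and 0% over all regions, with 63 members (2.34%) at an unadjusted p under 0.05, against 2.22% of all regions. The members' shares were near the background in each comparison.

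These counts rested on single libraries, and the number of regions tested changed with the library left out. Leaving out each library in turn gave 0 to 59 members for EPZ-6438. None passed when DMSO replicate 2 or EPZ-6438 replicate 2 was absent, as was so over all regions, and 59 of 4064 (1.45%) passed without combination replicate 1, against 1.62% over all regions. The range was 2 to 219 for the combination, with 2 of 2728 members (0.0733%, against 0.199% over all regions) without DMSO replicate 2 and 219 of 2712 (8.08%, against 7.67%) without combination replicate 2. It was 29 to 316 for the pooled contrast, with 29 of 2744 (1.06%, against 1.11%) without P5091 replicate 1 and 316 of 2712 (11.7%, against 11.6%) without combination replicate 2.

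By chromosome, the 13 calls for EPZ-6438 were 3 on chromosome 16, 4 on chromosome 17, 5 on chromosome 19, 1 on chromosome 20 and 0 on chromosome 22. Chromosome 19 had the highest share called of the 22 autosomes, 1.28%, but this was 5 of 392 regions. Chromosome 18, which is not among the 5, had nearly the same share, 1.27% (8 of 629). In the pooled contrast, chromosome 20 had 54 calls (9.54%) and chromosome 17 had 45 (5.75%). Both lay inside the range of the other autosomes, 5% on chromosome 13 to 10.2% on chromosome 5. For the combination the share called on the 5 chromosomes ran between 3.26% on chromosome 22 and 4.77% on chromosome 20. The other autosomes reached below and above this, with 2.78% on chromosome 21 and 5.61% on chromosome 5.

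The member with the largest fall in the combination was chr19:8271453-8271833 (hg19), which also had the largest fall in the pooled contrast. Its normalized tag counts were 62.9 and 18.7 under EPZ-6438, 108.3 and 41.8 under P5091, 16.3 and 27.6 under the combination, and 128.0 and 87.7 in DMSO. The 4 libraries with EPZ-6438 overlapped the 4 without, since EPZ-6438 replicate 1 lay above P5091 replicate 2, but within each replicate number the libraries that received EPZ-6438 were the lower ones. In the blocked fit the log2 difference from DMSO was -1.54 ± 0.27 (SE; adjusted p = 0.00218) with EPZ-6438 and -1.59 ± 0.27 (adjusted p = 0.000298) with the combination. In the limma model with the 4 groups alone, neither blocked nor centred, the adjusted p was 1.00 for EPZ-6438 and 0.348 for the combination. The HA libraries had 49.0 tags with K295A and 43.5 with WT there.

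The largest fall for EPZ-6438 was at chr17:30138028-30138403. It had 22.6 and 17.1 tags under EPZ-6438, 76.3 and 35.7 under P5091, 13.1 and 23.7 under the combination, and 63.6 and 67.3 in DMSO. All 4 libraries with EPZ-6438 lay below all 4 without it, and the log2 difference from DMSO in the blocked fit was -1.63 ± 0.30 (SE; adjusted p = 0.00225). Another region, chr17:46856770-46857161, lies within the densest window of chromosome 17. It had 23.0 and 22.8 tags under EPZ-6438, 58.7 and 59.9 under P5091, 16.9 and 37.1 under the combination, and 62.9 and 67.9 in DMSO, again with no overlap between libraries with and without EPZ-6438 (difference from DMSO -1.42 ± 0.27, adjusted p = 0.00344 in the blocked limma fit). Both regions were picked for their fall from DMSO in these same libraries, so their separation from DMSO follows from the choice.

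The largest rises with EPZ-6438 were smaller than the largest falls. At chr19:7480511-7480885 the tag counts were 77.9 and 69.9 under EPZ-6438, 47.0 and 35.7 under P5091, 24.4 and 52.9 under the combination, and 43.9 and 27.9 in DMSO. Both EPZ-6438 libraries were the highest of the 8, and combination replicate 1 was the lowest. The blocked log2 difference from DMSO was 1.11 ± 0.26 (SE; adjusted p = 0.0256). At chr19:20193769-20194150 it was 1.09 ± 0.27 and at chr17:26083726-26084107 it was 1.04 ± 0.27 (adjusted p = 0.0340 and 0.0399, limma). All 6 of these regions had a limma adjusted p of 1.00 in the model with the 4 groups alone, neither blocked nor centred. Whether the EPZ-6438 effect differed from that of the combination was not tested.

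**Figure D5:**
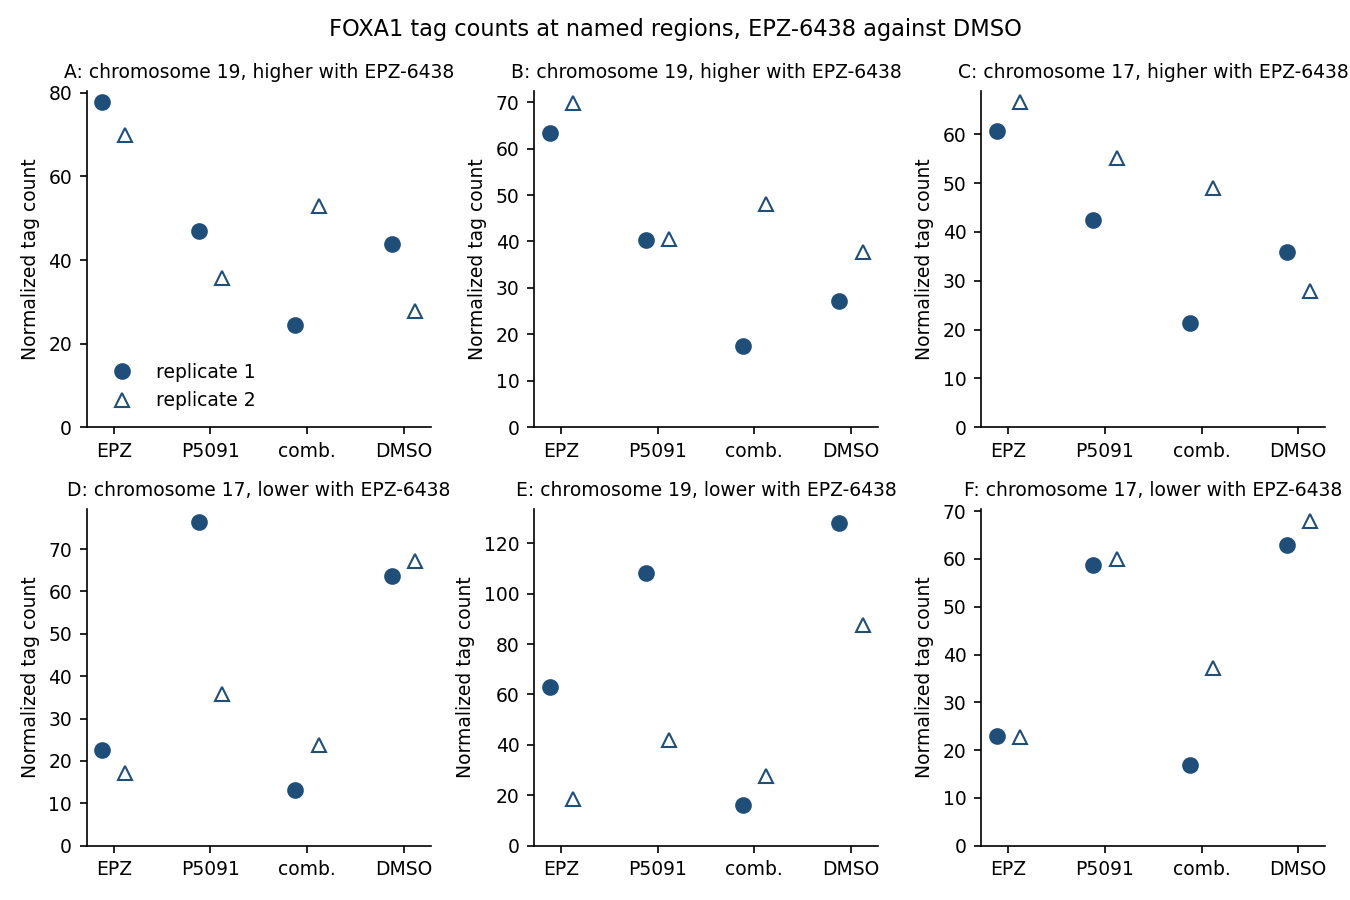
Normalized tag counts (tags per 1e7) in the 8 FOXA1 libraries at the 3 members with the largest rise (A to C) and the 3 with the largest fall (D to F) with EPZ-6438 against DMSO; filled circles are replicate 1, open triangles replicate 2, and each axis starts at 0. A is chr19:7480511-7480885, B chr19:20193769-20194150, C chr17:26083726-26084107, D chr17:30138028-30138403, E chr19:8271453-8271833 and F chr17:46856770-46857161; both EPZ-6438 libraries lie above both DMSO libraries in A to C and below them in D to F.

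Other regions with large falls in the combination were chr17:40957141-40957592, with 10.6 and 37.9 tags in the combination and 86.3 and 84.2 in DMSO, and chr16:27735099-27735514, with 8.75 and 18.9 tags in the combination and 89.9 and 38.9 in DMSO. The log2 difference from DMSO was -1.35 ± 0.25 at the first and -1.44 ± 0.31 at the second in the blocked limma fit (adjusted p = 0.000789 and 0.00413). The largest rise was at chr22:33723742-33724148, with 18.8 and 27.6 tags in the combination and 11.7 and 10.4 in DMSO (1.66 ± 0.38, adjusted p = 0.00661), a region with few tags and no peak in either tagged HA library. Centring adds the shift of the whole library to such a rise, and the uncentred difference there was 0.98. The rises next in size were at chr16:58895352-58895826, with 9.38 and 30 tags in the combination and 9.51 and 10.4 in DMSO, and chr20:53072981-53073403, with 18.8 and 31.6 tags in the combination and 18.3 and 12.8 in DMSO. There the counts of combination replicate 1 lay beside those of DMSO before centring.

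In the pooled contrast the largest rise was at chr22:22533361-22533818. It had 36.7 and 27.6 tags under EPZ-6438, 11.7 and 16.9 under P5091, 18.1 and 37.1 under the combination, and 17.6 and 16.3 in DMSO. All 4 libraries with EPZ-6438 lay above all 4 without it, with a log2 difference of 1.22 ± 0.24 in the blocked limma fit (adjusted p = 0.000790). The next were chr20:22821767-22822177, with 35.4 and 25.2 tags under EPZ-6438, 9.13 and 12.7 under P5091, 9.38 and 17.4 under the combination, and 11.7 and 10.4 in DMSO, and chr16:73647485-73647883, with 42.9 and 33.3, 11.7 and 11.5, 8.75 and 29.2, and 20.5 and 14.5 tags in the same order. Combination replicate 1 lay below all 4 libraries without EPZ-6438 at the region on chromosome 16. At the region on chromosome 20 it lay below all of them but P5091 replicate 1. The blocked log2 differences were 1.16 ± 0.27 on chromosome 20 and 1.13 ± 0.25 on chromosome 16 (limma adjusted p = 0.00469 and 0.00255).

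No member passed for P5091, and the members with the smallest p are given as values. At chr19:47164498-47164901 the tag counts were 33.9 and 34.5 with P5091 and 13.9 and 17.4 with DMSO, and at chr20:32898286-32898673 they were 65.2 and 127.1 with P5091 and 47.5 and 65.0 with DMSO. In the other direction, chr22:41354341-41354713 had 48.3 and 59.9 tags with P5091 and 81.2 and 98.1 with DMSO, and chr16:58055707-58056081 had 28.7 and 33.9 with P5091 and 45.3 and 63.9 with DMSO. Both P5091 libraries lay on the same side of both DMSO libraries in these 4 regions, and the adjusted p was 1.00 in each (limma, both in the model with the 4 groups alone and in the blocked fit).

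The 5 chromosomes also hold some of the strongest FOXA1 regions of the autosomes. Of the 1000 autosomal regions with the highest mean tag count among those called in all 8 libraries, 138 (13.8%, 95% interval 11.7% to 16.1%) lay on them, against 11.4% of all autosomal regions called in all 8. Chromosome 17 contributed 50 of the 138, chromosome 16 contributed 33, chromosome 19 contributed 24, chromosome 20 contributed 22 and chromosome 22 contributed 9.

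The strongest member was chr17:77809855-77810225, rank 4 among autosomal regions. Its tag counts were 444.5 and 327.7 under EPZ-6438, 523.8 and 361.3 under P5091, 135.0 and 339.3 under the combination, and 540.4 and 503.3 in DMSO. The 2 DMSO libraries and P5091 replicate 1 were the highest and combination replicate 1 the lowest. The input there was 5.00 tags on average, well above the 1.72 of all members called in all 8 libraries, and fold over input ran between 30.1 and 144.4.

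The next, chr17:79367737-79368102, had rank 5 with a mean of 363.0 tags and an input of 2.44. The strongest region of chromosome 16, chr16:2438805-2439213, had rank 7, with 348.8 and 308.1 tags under EPZ-6438, 398.6 and 367.4 under P5091, 115.6 and 288.8 under the combination, and 397.1 and 434.8 in DMSO. The strongest of chromosome 20, chr20:58628443-58628817, averaged 302.1 tags and that of chromosome 19, chr19:934857-935248, averaged 287.9. Chromosome 22 had a lower maximum, 192.0 tags at chr22:39635539-39635905, rank 82. In all of these combination replicate 1 had the lowest tag count of the 8 libraries.

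Of all 14895 members, K295A peaks overlapped 42.0% and WT peaks 46.6%, against 42.6% and 46.5% on the other autosomes. HA-tagged FOXA1 was found at nearly all member regions called in all 8 FOXA1 libraries. K295A peaks overlapped 91.2% of them (95% interval 90.1% to 92.3%) and WT peaks 92.8% (91.8% to 93.8%). On the other autosomes these shares were 90.7% (90.3% to 91.1%) for K295A and 91.2% (90.8% to 91.6%) for WT. The K295A intervals of the 5 chromosomes and the other autosomes overlapped, and the WT interval of the 5 chromosomes lay just above that of the other autosomes. The K295A difference, 0.486 percentage points, changed direction to -0.597 without chromosome 17 and to -0.223 at regions called in both DMSO libraries, and it was 2.23 with peaks scored at or above the median. The WT difference, 1.64 points, was 1.00 without chromosome 17. With 1 library per condition neither difference has a replicate check. The untagged shFoxA1 and pGIPZ libraries each had a peak at 1 of these 2691 regions. Neither tagged protein had a peak at 122 of them (4.53%), against 5.10% on the other autosomes.

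Chromosome 17 had the highest overlap of the 22 autosomes with both proteins, 93.9% with K295A and 94.4% with WT. Chromosome 22 had the lowest overlap of the autosomes with K295A, 88.8%, and 89.9% with WT. Chromosomes 16, 19 and 20 lay between them, with 90.2%, 91.3% and 89.9% for K295A and 92.6%, 93.1% and 92.2% for WT.

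The tag counts of K295A and WT at these regions were close. At the 2384 members called in all 8 FOXA1 libraries and with both tagged proteins, the median log2 ratio of K295A over WT was -0.07, with quartiles of -0.32 and 0.20, against a median of -0.02 on the other autosomes. The 2 tag counts lay within 2-fold of each other at 97.6% of these members and at 97.9% on the other autosomes. Chromosomes 16, 20 and 17 had the lowest medians of the 22 autosomes, -0.09, -0.08 and -0.07, which are differences of a few percent between 2 single libraries.

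The ends of this range were both on chromosome 16. At chr16:80212124-80212542 K295A had 9.04 tags and WT 26.7, a ratio of 0.339. At chr16:87887807-87888209 K295A had 47.5 tags and WT 17.6, a ratio of 2.70. With 1 library each, these 2 regions are the extremes of 2384 and have no replicate check.

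As peak lists, the HA libraries gave another picture for the untagged samples. K295A had 8062 peaks on the 5 chromosomes, 10.2% of its autosomal peaks, and WT had 9658, also 10.2% (10.1% to 10.4%). In the untagged libraries 162 peaks of shFoxA1 (20.7%, 17.9% to 23.7%) and 160 of pGIPZ (19.8%, 17.1% to 22.7%) lay there. Peaks per Mb on the 5 chromosomes over the other autosomes came to 0.851 for K295A and 0.858 for WT, but 1.96 for shFoxA1 and 1.85 for pGIPZ. The HA lists were called without an input, and the part of higher input on these chromosomes in the untagged peaks was not tested.

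That background touched few members. Of the 14895 regions 25 overlapped a peak of an untagged library (0.168%), against 89 (0.0732%) on the other autosomes. Chromosome 19 held 11 of the 25, chromosome 17 held 10, chromosome 16 held 3 and chromosome 20 held 1, and 2 of the 25 were called in all 8 FOXA1 libraries. Leaving them out changed the difference in occupancy to 0.794 percentage points.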

How the data were processed

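The data are ChIP-seq peak lists of 12 LNCaP libraries. Per the submitters' processing notes, the build was hg19 and the tools included Bowtie2 and HOMER 4.2. Per the file headers, each library's peaks passed a 0.001 false discovery rate and a 4-fold excess over the surrounding 10000 bases, and those of FOXA1 also a 4-fold excess over an input; each treatment has 1 input that serves both replicates. The deposited normalized tag count is a signal value scaled to 1e7 tags. The deposited fold over input is the peak caller's ratio. Input tags were recovered as a peak's normalized tag count times its listed input tags over its listed total tags. The deposited findPeaks score served as a stricter threshold. Total tags per library are a count given by the file headers.

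FOXA1 peaks were merged at 1 shared base, and a region took each library's highest peak. Chromosome length was the span between the first and last peak of any list. Genes per chromosome came from RefSeq GRCh38.p14; no coordinates were taken from it. Region sequences and nearby genes were not analysed here. Clopper-Pearson intervals and correlations were computed with scipy 1.17.1. Library values were compared by exact permutation tests coded for this work to count every arrangement, and regions with limma 3.58.1 (R 4.3.3, trend on, pseudocount 1). Both procedures were tested on simulated data.

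Named regions are the strongest of each chromosome, the 3 largest rises and falls per contrast in the blocked fit, the densest 1 Mb window of each chromosome and the extremes of K295A over WT, without regions that overlap an untagged peak. The separation of the compared libraries at regions named for a contrast follows from this choice and is no further evidence. For P5091, where none passed, they are the 2 members with the smallest p in each direction. The members and lists were chosen with earlier results of these data known. Whether replicates came from separate cultures is not stated in the labels, and p-values therefore reflect the spread of these libraries alone, which may be technical. Deviations from group means of same-numbered libraries correlated in 6 of 6 pairs of groups, at 0.148 to 0.488, all above 0.1, so the numbers were taken to pair the libraries. Leaving out chromosomes, libraries or weak peaks and other pseudocounts, normalizations and units of the test were tried as alternatives.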

Additional observations from a re-analysis of the deposited data

How the results depend on the processing

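Of 253 values of 20 results under the alternatives, 198 were counted as unchanged. They kept direction and side of the threshold, stayed within their spread or, for counts of members called, were equal or similar in size. Many of those member counts, and all for P5091, were 0 under both settings. For the compound effects on share and relative tag count the side of the threshold was fixed beforehand. Their exact tests cannot go below 0.333 (unpaired) or 0.5 (2 pairs), so only a change of sign could take them out of the 198. The density difference (log2 -0.11) missed 0.05 in the exact sign-flip test with peaks scored at or above the median (-0.047, p = 0.0859), with equal numbers of top peaks (-0.054, p = 0.117), without chromosome 16 (-0.054) and with the 4 inputs as units (-0.111); the cause was not tested, except that 4 units cannot go below 0.125, as for fold over input (-0.197). The tag count difference (0.04) passed 0.05 at regions called in all 8 libraries (0.101), with means (0.058), with the score threshold (0.048) and without chromosome 19 (0.046), 20 (0.045) or 22 (0.058). Its main exact sign-flip test, with some libraries at 0, could not go below 0.0625, nor could it pass 0.05 with any library left out. The occupancy difference (0.783 points) became 2.62 with equal top peaks and 2.10 with the score threshold, which also took the K295A overlap difference (0.486 points) to 2.23.

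Compound effects on share and relative tag count, none past a threshold, changed sign in some settings. The EPZ-6438 tag effect was 0.022 at regions called in at least 4 libraries. The P5091 share effect was -0.092 with the score threshold and -0.182 with equal top peaks, and that of the combination was 0.302 with the score threshold and 0.00185 without chromosome 17. Leaving out each library in turn, the share effect ranged over -0.825 to 0.154 for EPZ-6438, -0.280 to 0.605 for P5091 and -0.320 to 0.120 for the combination, and the tag effect over -0.099 to 0.073 for EPZ-6438 and -0.105 to 0.031 for P5091.

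With 2 complete pairs the replicate block cannot change the mean share effects (-0.336, 0.162 and -0.100), so it was no check of them. Blocked and centred, limma called 13 (EPZ-6438), 107 (combination) and 193 (the 4 libraries that received EPZ-6438 against the other 4) members, and 4, 49 and 115 with quantile normalization and the block. The block without centring called 0 in each comparison. Without the block, the last contrast gave 2 members when centred and 1 at regions called in at least 4 libraries, and leaving out each library gave 0 to 1333 there and 0 to 1891 for the combination. With the block these ranges were 0 to 59 (EPZ-6438), 2 to 219 (combination) and 29 to 316 (the pooled contrast). The planned edgeR fits were not run: only 3 of the 8 libraries hold whole tag counts, and the normalized values of the others are rounded. Weak regions are limited by depth, and peak lists hold no tags where no peak was called.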
